A study of Mus musculus with 18 samples.

Results

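Among the annotated rows of the iWAT and BAT expression files, 14196 carry no gene name and are known only by the accession of a cDNA clone, AK followed by 6 digits. These AK rows were examined where their mean level reached 5 RPKM in the 6 iWAT samples or in the 6 BAT samples, which left 172 of the 14196 (1.21%). RPKM is the number of reads per kilobase of row length, scaled to the read total of the library. For comparison, 6350 of the 32413 rows with a gene name (19.6%) reached this level. The levels in iWAT and BAT thus chose the 172 rows and are given here as descriptions. A total of 103 rows reached 5 RPKM in both depots, 41 in iWAT alone and 28 in BAT alone. The row nearest above the limit was AK143968 (higher mean 5.02 RPKM, in BAT), and the nearest below was AK158258 (4.97 RPKM, in BAT).

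The libraries came from wild type male C57BL/6J mice, 16 weeks old and kept on regular chow, with 6 samples per depot. iWAT and eWAT samples were adipocytes of inguinal and epididymal white fat that had been set free with collagenase and floated off, whereas BAT samples were brown fat frozen as tissue. A comparison with BAT thus joins depot and preparation, which cannot be told apart, and in the BAT libraries fewer cells of a type cannot be told apart from less RNA per cell. The eWAT files list single transcripts where the others list genes, so only the 156 AK rows with the same symbol, start, end and length in both kinds of file (of the 172) could be compared with eWAT, and the counting cannot be told apart from the depot there.

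AK accessions belong to full-length cDNA clones that were collected from many mouse tissues and sequenced one at a time. A clone can be a protein-coding gene that had no name yet, a long non-coding RNA, an antisense transcript made from the other strand of a known gene, or a piece of an intron or of an unspliced precursor. The library kit named in the labels does not mark strand by itself. Reads from a gene and from an RNA made on the other strand of the same bases then look alike, and they can count for both.

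The depots matched their labels in the main fat cell genes. Adipoq, which encodes the fat cell hormone adiponectin, was between 1485 and 2147 RPKM in iWAT, between 1158 and 3163 in eWAT, whereas BAT had between 258 and 394. Ucp1, the heat-producing protein of brown fat mitochondria, was between 969 and 1509 RPKM in BAT and at most 5.77 in any iWAT or eWAT library. Single libraries stood apart in other markers. The 5 skeletal muscle genes summed to 1340 RPKM in BAT replicate 12 and to at most 119 in the other BAT libraries. The 8 macrophage genes summed to 2559 RPKM in eWAT replicate 15 and to at most 597 in the other eWAT libraries. The 5 epididymis genes differed among the eWAT libraries, from 0.045 RPKM to 66.4 and 66.6 in the 2 highest. The reads behind the RPKM numbered between 22929576 and 34512470 per library. AK rows of the set took between 0.93% and 1.07% of them in iWAT and between 1.28% and 1.40% in BAT. Without the 4 rows of the mitochondrial genome the order was reversed. The nuclear AK rows took between 0.611% and 0.74% in iWAT and between 0.361% and 0.41% in BAT.

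Most of the 172 rows were placed across a named gene on the other strand. A total of 128 (74.4%) overlapped only a named gene of the opposite strand, 12 overlapped only one of the same strand, 12 overlapped genes on both strands and 20 overlapped none. In all, 140 rows (81.4%) crossed an opposite gene, against 15.4% of the 14024 other AK rows, of which 56.5% overlapped only a gene of the same strand. The share with an opposite gene was 11.6% of the AK rows below 0.1 RPKM, 27.4% of those from 0.1 to 1, 58.1% from 1 to 5, 80.0% from 5 to 10, 68 of 80 rows from 10 to 50 and 72.7% at 50 or more. These shares describe the annotation and were not tested, since neighbouring clones share genes.

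**Figure D1:**
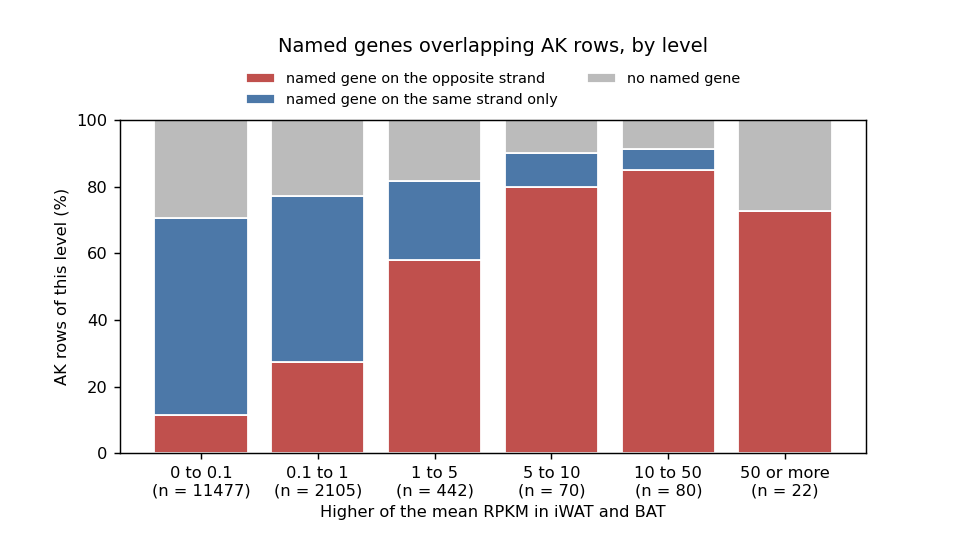
Bars show, for all AK rows grouped by the higher of their mean RPKM in iWAT and BAT (x axis, number of rows in brackets), the percent that overlapped a named gene on the opposite strand (red), a named gene on the same strand only (blue) or no named gene (grey). The red share was 11.6% in the lowest group and 80.0% from 5 to 10 RPKM.

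Exons were seen from the GENCODE M1 annotation of the same mm9 build. Of the 114 rows with a single exon, 32 (28.1%) had at least 50% of their bases within exons of an opposite gene, against 0.9% of the 12468 other AK rows with a single exon. Another 3 rows had that share within exons of their own strand, and 52 rows (45.6%, others 6.5%) touched an exon with a smaller part of their bases. Only 11 rows (9.6%, others 66.7%) lay in introns without touching an exon, and 16 of the 114 (others 25.8%) lay between genes. The other 58 rows had more than 1 exon, and 55 of them (94.8%) crossed a named gene on the opposite strand. The share was 35.8% among the 1556 other AK rows with more exons.

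The highest nuclear row, AK018896, shows what such an overlap means at the level of bases. It is a single exon of 366 bases at chr16:23156916-23157281 on the minus strand of mm9, and 36.9% of it is coding sequence of Adipoq, which runs on the plus strand. Bases chr16:23157147-23157176 are printed on both strands, 5′ to 3′, to show that 1 stretch of DNA serves both rows. The same is shown for chr8:71416494-71416523 in AK089741 and Lpl, the lipase that frees fatty acids from blood lipids.
AK018896, minus strand: ctcctgtctcacccttaggaccaagaagac
Adipoq, plus strand: gtcttcttggtcctaagggtgagacaggag
AK089741, minus strand: gggcacccaactctcatacattcccgttac
Lpl, plus strand: gtaacgggaatgtatgagagttgggtgccc

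Levels are given as the lowest, the median and the highest of 6 libraries. AK018896 had 712, 873 and 992 RPKM in iWAT, 386, 809 and 1070 in eWAT, while BAT had 113, 128 and 168. All iWAT and eWAT libraries lay above all BAT libraries. Its log2 fold change of iWAT over BAT was 2.43 ± 0.11 (SE; adjusted p = 2.5e-10, edgeR), beside 2.35 for Adipoq itself. In every library the reads counted to AK018896 came to between 11.2% and 12.6% of those counted to Adipoq. AK089741 had 515, 582 and 643 RPKM in iWAT, 467, 619 and 681 in eWAT, while BAT had 84.6, 93.4 and 129. Its log2 fold change was 2.28 ± 0.13 (SE; adjusted p = 1.8e-09, edgeR), beside 1.96 for Lpl.

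AK158286 is the plainest case. This row of 2 exons at chr7:29161588-29165147 (plus strand) covers the whole of Zfp36, which encodes a protein that speeds the decay of short-lived messenger RNAs and is induced early after stimulation. AK158286 had 306, 349 and 458 RPKM in iWAT, 235, 272 and 340 in eWAT, while BAT had 3.21, 4.94 and 7.73. The 12 iWAT and BAT libraries gave AK158286 between 371 and 35553 reads and gave Zfp36 between 363 and 35409. In no library did the reads of AK158286 exceed those of Zfp36 by more than 3.3%, as they came to between 100.2% and 103.3% of them. The log2 fold changes of iWAT over BAT were 5.84 for AK158286 and 5.85 for Zfp36.

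Near-constant read shares were seen for other abundant rows too. Of 128 opposite pairs with at least 10 partner reads in each library, 81 had a highest share at most 1.5 times the lowest. AK155229 crosses the pseudogene Gm15427, and its reads were between 82.0% and 84.6% of that row's in each library. Of the 31-base words of AK155229, 85.7% occur elsewhere in the genome, with a median of 3 copies. The locus behind the reads of AK155229 is thus uncertain. AK150340, a row of 27 exons across the complement gene C3 (listed in the files as LOC100048759), had 75.2, 98.8 and 152 RPKM in iWAT and 35.2, 53.9 and 63.2 in BAT. Its reads were between 76.9% and 79.6% of those of the opposite row. AK089315, with 19 exons across Thbs1, the matrix protein thrombospondin, had 42.0, 71.8 and 149 RPKM in iWAT, 105, 183 and 262 in eWAT, while BAT had 0.486, 1.13 and 4.38. AK046375, across the metallothionein gene Mt2, had 59.0, 73.6 and 144 RPKM in iWAT, 34.3, 41.7 and 58.0 in eWAT, while BAT had 3.32, 4.14 and 5.70. AK131699, across the complement factor gene Cfb, had 59.5, 81.0 and 92.4 RPKM in iWAT, 46.6, 56.0 and 79.1 in eWAT, while BAT had 1.17, 1.45 and 1.86. In these 3 rows no iWAT or eWAT library overlapped with a BAT library. All 3 entered by their level in iWAT alone, so this is a description. The reads of AK089315 were between 50.6% and 62.2% of those of Thbs1 and the reads of AK046375 between 62.7% and 75.2% of those of Mt2. For AK131699 the share was less even, from 13.1% to 25.4% of the reads of Cfb.

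Other abundant rows across opposite genes were higher in BAT. AK150979, with 9 exons across Acly, which makes the acetyl-CoA used for fat synthesis, had 34.5, 62.8 and 102 RPKM in iWAT, 34.9, 63.6 and 139 in eWAT, while BAT had 158, 347 and 584. Its log2 fold change of iWAT over BAT was -2.64 ± 0.37 (SE; adjusted p = 2.0e-05, edgeR), beside -3.05 for Acly. AK013113, across the proteasome gene Psmd8, had 41.9, 52.2 and 69.4 RPKM in iWAT, 56.7, 66.5 and 80.0 in eWAT, while BAT had 62.3, 68.7 and 80.2. Its iWAT and BAT ranges overlapped, and the log2 fold change was -0.63 ± 0.11 (SE; adjusted p = 0.00015, edgeR). AK147842, within the untranslated part of Rnf11, was higher in iWAT (67.6, 88.9 and 104 RPKM) than in BAT (38.5, 46.0 and 52.2).

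Across all 172 rows, 64 were higher in iWAT and 63 in BAT by edgeR's quasi-likelihood test with Benjamini-Hochberg adjustment over all rows, of 171 that passed the filter on low counts. Of all 19733 rows tested, 34.0% were called higher in iWAT and 33.6% higher in BAT (67.6% in all). Since the rule used these levels, nothing is read from the count over the 172. Of the 103 rows that reached 5 RPKM in both depots, 65 (63.1%) were called, 29 higher in iWAT and 36 higher in BAT, a share near that of all rows. Their median log2 fold change was -0.03, beside 0.01 over all rows tested. Over the 172 rows, RLE size factors in place of TMM left 64 and 63 calls, beside 6692 and 6660 among all 19733 rows. With limma on log2(RPKM + 0.1), which changes the model and leaves out the scaling, the median of all rows was 0.24, and 88 of the 172 rows were called higher in iWAT and 54 higher in BAT. Of all 19733 rows, limma called 9088 higher in iWAT and 4856 higher in BAT. Mitochondrial rows took between 14.9% and 17.2% of the reads in BAT and between 5.62% and 8.99% in iWAT.

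Each row was set beside a partner gene, the named gene with the largest overlap or else the nearest within 10000 bp. Among 131 rows with a tested partner on the opposite strand, the log2 fold changes of row and partner lay within 0.5 of each other in 112 (85.5%), with a median difference of 0.17 and with 5 pairs apart by 1 or more. Across these 131 loci the 2 changes had a correlation of 0.96, given as a description since both rows of a pair can count the same reads. Among the 17 rows with a partner on the same strand, 7 lay within 0.5 (41.2%) and 7 were apart by 1 or more. Among 13 rows beside a partner without overlap, 3 lay within 0.5.

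**Figure D2:**
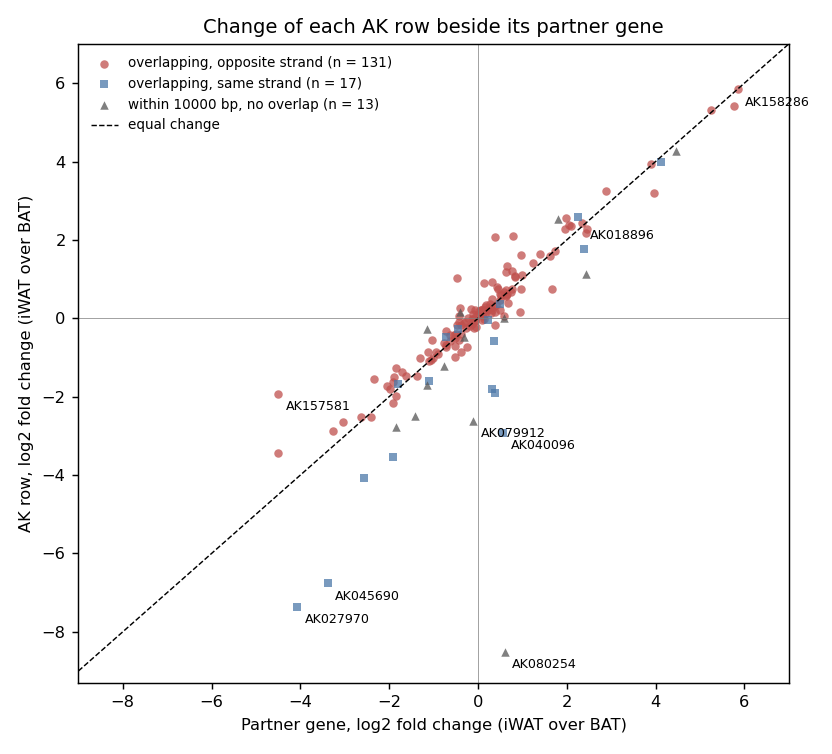
Each point is 1 AK row. The y axis gives its log2 fold change (iWAT over BAT), and the x axis gives that of its partner gene. Red circles (n = 131) are rows crossed by a partner on the opposite strand, blue squares (n = 17) have a partner on the same strand and grey triangles (n = 13) a partner within 10000 bp. Most red points lie near the dashed line of equal change, while AK080254, AK027970 and AK045690 lie far below it.

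The ratio of row to partner cancels any scaling between libraries and was compared by a two-sided exact permutation test over all splits of 6 against 6 libraries (smallest p 0.00216). Of 99 pairs whose AK row reached 5 RPKM in both depots, 57 differed between iWAT and BAT after adjustment over all 162 pairs. Of 386 pairs formed in the same way from other AK rows at 1 RPKM or more, 59.1% were called, a like share. The differences were often small. The log2 ratio of AK018896 to Adipoq was -1.09 (SD 0.03) over the 6 iWAT libraries and -1.17 (SD 0.04) over the 6 BAT libraries, a difference of 0.08 (exact permutation test, adjusted p = 0.00988). The ratio of AK089741 to Lpl differed by 0.33 (exact permutation test, adjusted p = 0.00988) and that of AK150979 to Acly by 0.41 (exact permutation test, adjusted p = 0.00557).

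A larger departure was seen for AK080970, which crosses Adrb3, the beta3-adrenergic receptor of fat cells, and was singled out after its values were seen. This departure was not the largest, since the log2 fold changes of 5 opposite pairs were apart by 1 or more. It had 10.5, 17.4 and 30.9 RPKM in iWAT, 8.31, 27.3 and 41.3 in eWAT, while BAT had 4.86, 8.54 and 10.4. The iWAT libraries all lay above the BAT libraries. Its log2 fold change was 0.91 ± 0.23 (SE; adjusted p = 0.0035, edgeR), whereas that of Adrb3 was 0.14. The log2 ratio to Adrb3 was higher in iWAT by 0.75 (exact permutation test, adjusted p = 0.00557).

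**Figure D3:**
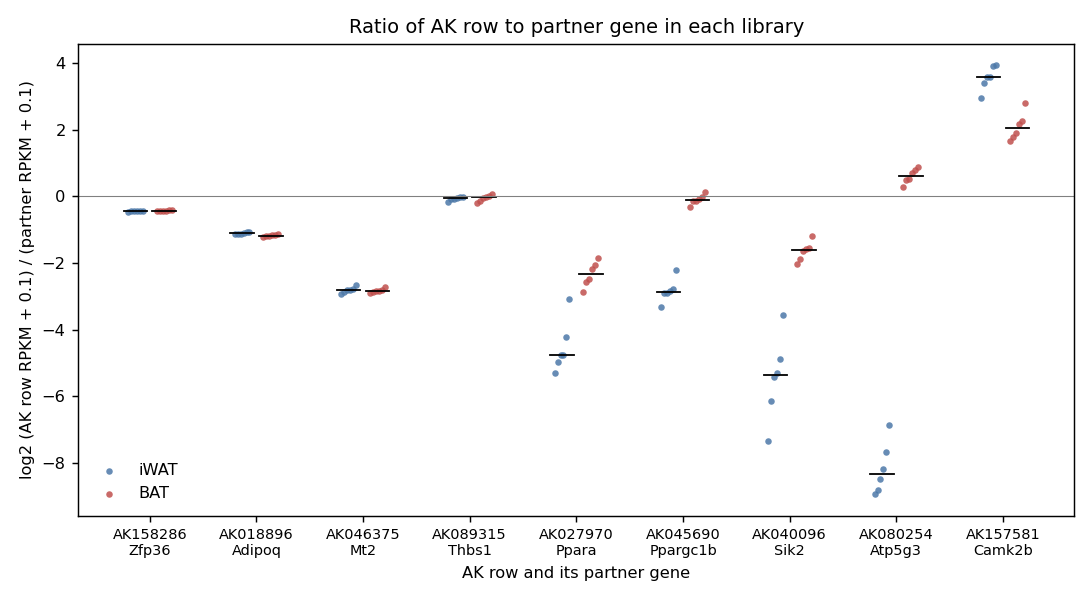
Points are the log2 ratio of AK row to partner gene (RPKM + 0.1 in both) in each iWAT (blue) and BAT (red) library, with the median as a line, for 9 named pairs on the x axis. The ratios to Zfp36, Adipoq, Mt2 and Thbs1 differed by at most 0.08 between depots, whereas AK080254 was below its partner Atp5g3 in all 6 iWAT libraries and above it in all 6 BAT libraries.

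The 3 rows with the largest difference between iWAT and BAT lay outside protein-coding exons and were high in BAT. They entered by their level in BAT alone, so the values are descriptions. AK080254, a single exon of 621 bases at chr2:73749834-73750454 on the minus strand, lies 451 bp from Atp5g3 and between genes. It had 0.125, 0.253 and 0.632 RPKM in iWAT (2 to 9 reads), 0, 0.127 and 0.295 in eWAT, while BAT had 72.9, 90.6 and 94.6 (1383 to 1943 reads). No library of the white depots came near a BAT library. The fitted log2 fold change of iWAT over BAT was -8.52, while that of Atp5g3, a subunit of the mitochondrial ATP synthase, was 0.61. Of the 31-base words of AK080254, 6.7% occur elsewhere in mm9.

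The next rows were placed inside introns of genes on the same strand. AK027970, in an intron of Ppara, the nuclear receptor that drives fatty acid oxidation, had 0, 0.044 and 0.198 RPKM in iWAT and 5.67, 8.02 and 16.4 in BAT, and at most 2 reads in any eWAT library. AK045690, within Ppargc1b, a coactivator of mitochondrial genes, and clear of its exons, had 0.035, 0.144 and 0.218 RPKM in iWAT, 0.086, 0.106 and 0.218 in eWAT, while BAT had 11.3, 12.1 and 16.0. The fitted log2 fold changes of iWAT over BAT were -7.37 for AK027970 beside -4.07 for Ppara, and -6.76 for AK045690 beside -3.38 for Ppargc1b. With 0 to 5 reads of AK027970 per iWAT library, its log2 ratio to Ppara depended on the pseudocount, as it was different by -2.18 (iWAT minus BAT) with 0.1 and by 0.22 with 1. The log2 ratio of AK045690 to Ppargc1b was -2.82 (SD 0.36) over the 6 iWAT libraries and -0.09 (SD 0.15) over the 6 BAT libraries.

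Adra1a, which encodes the alpha1A-adrenergic receptor, held 3 of the 172 rows. AK078237 lies in an intron on the strand of the gene, while AK039291 and AK040829 lie across it. AK078237 had 1.01, 1.26 and 1.69 RPKM in iWAT, 0.447, 0.616 and 0.717 in eWAT, while BAT had 10.9, 12.2 and 13.95, so that the 3 depots did not overlap. AK039291 had 3.02, 4.64 and 5.28 RPKM in iWAT and 10.0, 10.7 and 14.3 in BAT, and AK040829 had 2.71, 3.53 and 4.30 in iWAT and 11.3, 12.7 and 14.9 in BAT. Adra1a itself had a mean of 2.24 RPKM in iWAT and 7.08 in BAT, and the 3 rows share its locus and are not independent. All 3 entered by their level in BAT alone, so their values are descriptions.

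AK040096 and AK088968 were high in BAT although the mean of their host gene was higher in iWAT, whereas for AK049451 the host gene was higher in BAT too. AK040096, in Sik2, a kinase that restrains cAMP-driven transcription, had 0.11, 0.683 and 2.82 RPKM in iWAT, 0.215, 0.372 and 1.38 in eWAT, while BAT had 4.49, 5.94 and 7.54. Sik2 had a mean of 32.9 RPKM in iWAT and 18.4 in BAT, the opposite order. AK088968, in Mga, had 2.13, 2.59 and 2.94 RPKM in iWAT, 2.35, 2.81 and 2.92 in eWAT, while BAT had 7.07, 7.92 and 8.59, beside means of 2.27 and 1.45 for Mga in iWAT and BAT. AK049451, in Nrp2, a co-receptor of VEGF and semaphorins, had 0.396, 0.949 and 1.48 RPKM in iWAT and 10.1, 12.7 and 17.3 in BAT, beside means of 2.04 and 10.2 RPKM for Nrp2 in iWAT and BAT.

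AK138356 overlaps A930007A09Rik on the same strand, a provisional gene that counts here as named. It had 0.153, 0.219 and 0.318 RPKM in iWAT, 0.031, 0.06 and 0.136 in eWAT, while BAT had 4.94, 5.43 and 6.33. AK079912, a row of 2 exons at chr6:86463889-86466267 on the minus strand, 8221 bp from Pcbp1, had 6.00, 7.43 and 7.98 RPKM in iWAT, 1.08, 2.51 and 4.24 in eWAT, while BAT had 30.1, 36.2 and 46.2. The 3 depots did not overlap for AK079912. Its log2 fold change of iWAT over BAT was -2.62 ± 0.10 (SE; adjusted p = 6.6e-11, edgeR), beside -0.11 for Pcbp1. The log2 ratio to Pcbp1 differed by -2.50 between the depots (exact permutation test, adjusted p = 0.00557). AK007267, a single exon at chr19:3205607-3206258, had 34.2, 51.7 and 55.7 RPKM in iWAT, 27.8, 34.4 and 61.6 in eWAT, while BAT had 148, 184 and 239. Its log2 fold change was -2.26 ± 0.14 (SE; adjusted p = 5.9e-09, edgeR), and 36.5% of its 31-base words occur elsewhere.

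**Figure D4:**
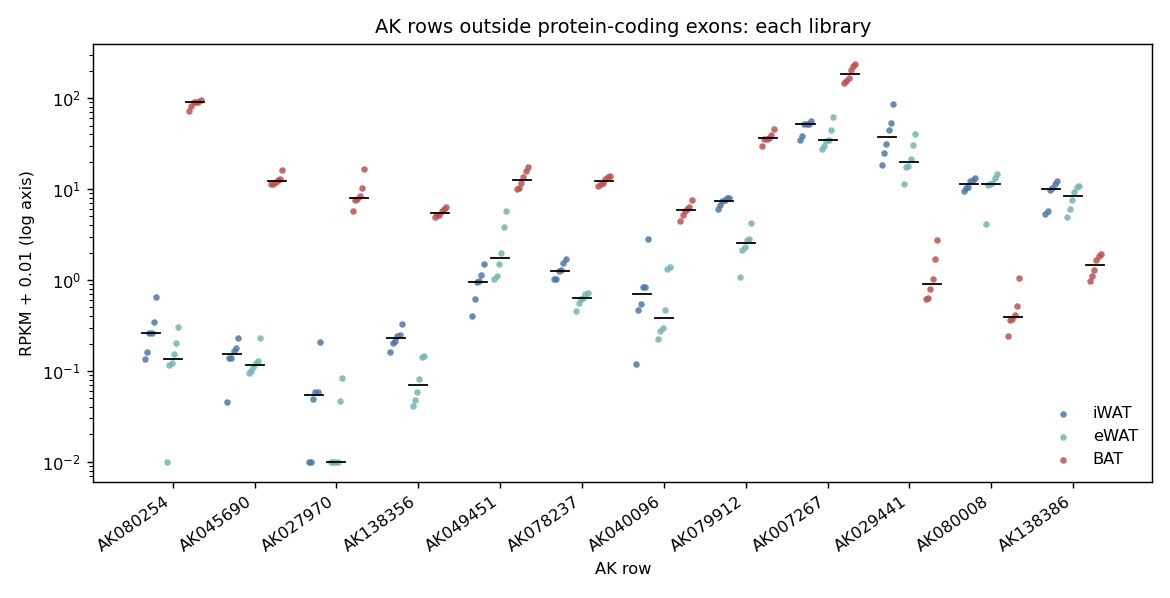
Points are libraries of iWAT (blue), eWAT (green) and BAT (red), with the median as a line. The y axis gives RPKM + 0.01 on a log axis for 12 AK rows outside protein-coding exons. In the first 9 rows every BAT library lay above every iWAT library, and in AK029441, AK080008 and AK138386 every BAT library lay below. Where a row entered by its level in a single depot, this order is a description.

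The ends of these rows were read from the mm9 genome. A polyadenylation signal stands shortly before the end of most messenger RNAs, while clones primed with oligo(dT) can also end beside a run of A in the genome. AATAAA occurred within the last 30 bases of 26.3% of the 114 rows with a single exon and of 15.2% of the other AK rows with a single exon. At least 12 A among the 20 bases that follow were found for 32.5% of the 114 and for 70.2% of the others. These shares pool rows of different placement. For AATAAA the order was reversed among rows classed above as within exons of an opposite gene. There it occurred in 9.4% of the 32 rows and in 23.4% of the 107 other AK rows. At least 12 A followed 34.4% of these 32 rows and 40.2% of these 107. The other placements were not compared class by class here. The next lines show the last 30 bases of 6 rows, 5′ to 3′ on their own strand, with AATAAA in capitals. These rows were high in BAT and were picked because they hold AATAAA, so they do not stand for all rows high in BAT.
AK138356: ccaccaaggtaatAATAAActcgcagtctc
AK049451: tgtggaatgtAATAAAatgacgatattttt
AK078237: agtgttccctAATAAAatattttaaacgtc
AK083344: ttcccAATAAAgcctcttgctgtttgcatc
AK079912: taataacttaAATAAAcagggtcttactat
AK007267: ggagatggcttaAATAAAtaacttaaactc

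A run of A and AATAAA do not exclude each other, as AK007267 has 15 A among the 20 bases after its end. Of the rows described here, 4 others with a run of A are shown by the 20 bases after their ends, with each A in capitals. AK027970 and AK040096 each have 19 A of 20, AK088968 and AK144717 have 16. Which of these clones end at a polyadenylation site was not tested.
AK027970: AAAAAAAAAAAAAAAAAAAc
AK040096: AAAAAAAAAAAAAcAAAAAA
AK088968: tcAAAAAAgAAgAAAAAAAA
AK144717: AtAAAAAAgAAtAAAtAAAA

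As AK080254 and AK079912 have starts away from named exons, 300 bases from 250 before to 50 after the annotated start are given, on their own (minus) strand, at chr2:73750405-73750704 and chr6:86466218-86466517. The hexamer AGGTCA, which nuclear receptors can bind, was searched on both strands (AGGTCA or TGACCT) and occurs in neither window. It occurred in 16.5% of the windows of 170 rows and in 16.1% of those of the 14024 other AK rows.
AK080254: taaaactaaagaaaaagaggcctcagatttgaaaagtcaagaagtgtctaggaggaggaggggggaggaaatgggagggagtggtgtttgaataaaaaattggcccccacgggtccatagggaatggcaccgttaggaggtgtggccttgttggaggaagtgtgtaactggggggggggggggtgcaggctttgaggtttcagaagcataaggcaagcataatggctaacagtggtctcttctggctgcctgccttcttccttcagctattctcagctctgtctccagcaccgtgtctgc
AK079912: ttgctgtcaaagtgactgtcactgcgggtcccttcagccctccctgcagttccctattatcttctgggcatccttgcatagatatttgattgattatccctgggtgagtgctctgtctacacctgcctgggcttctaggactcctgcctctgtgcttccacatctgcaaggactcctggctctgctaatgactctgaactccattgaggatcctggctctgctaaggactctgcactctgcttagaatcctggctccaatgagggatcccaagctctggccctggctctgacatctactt

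Rows far from genes were mostly repeated sequence. Only 4 of the 172 rows have no named gene within 10000 bp. AK029441 (chr2:75476650-75479333) had 18.3, 37.8 and 86.3 RPKM in iWAT, 11.4, 19.9 and 40.2 in eWAT, while BAT had 0.615, 0.895 and 2.77. AK144717 (chr19:4062439-4066103) had 35.1, 52.8 and 68.0 RPKM in iWAT and 3.85, 5.26 and 7.29 in BAT, without overlap (log2 fold change 2.99 ± 0.21 (SE), adjusted p = 1.7e-08, edgeR). AK155639 (chr10:55439040-55440642) had 4.38, 5.10 and 6.68 RPKM in iWAT, 5.48, 6.88 and 7.51 in eWAT, while BAT had 2.80, 3.38 and 4.54. Of their 31-base words, 95.1%, 92.6% and 97.5% occur elsewhere in mm9, with a median of 36, 42 and 190 copies. How reads of repeated sequence were placed by the authors is not given in the sources used here, so the locus behind these reads is uncertain. The other row, AK138386 (2 exons), had 5.37, 10.0 and 12.4 RPKM in iWAT and 0.964, 1.47 and 1.94 in BAT and was not searched for copies, since the files give no exon positions. Of the 114 rows with a single exon, 85 had fewer than 10% of their words elsewhere and 14 had more than 50%.

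**Figure D5:**
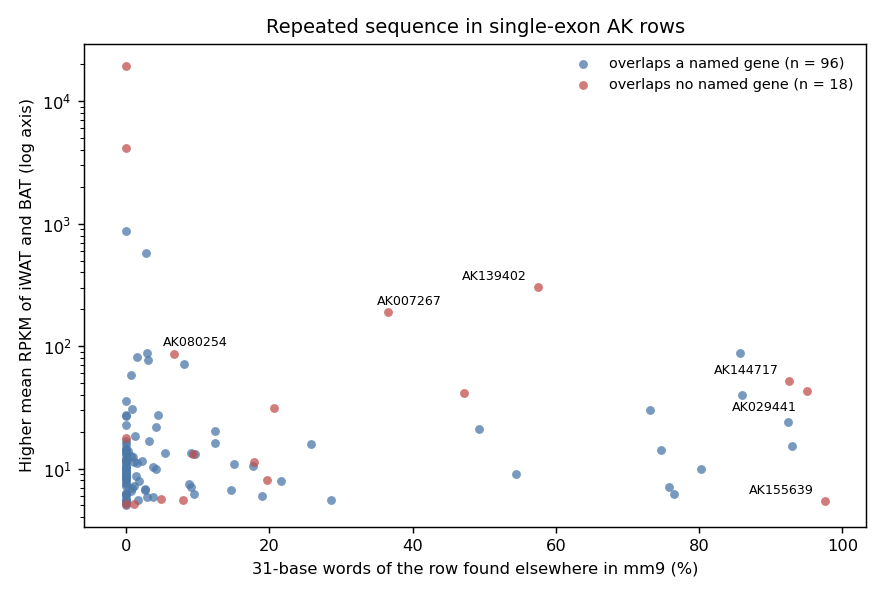
Each point is 1 of 114 single-exon AK rows. The x axis gives the percent of its 31-base words, taken every 10 bases, that occur elsewhere in mm9, and the y axis gives the higher of its mean RPKM in iWAT and BAT on a log axis, with rows that overlap a named gene in blue (n = 96) and the others in red (n = 18). AK029441, AK144717 and AK155639 lie above 90%, while AK080254 lies at 6.7%.

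The mitochondrial genome holds 4 of the rows, among them the highest. AK142750 (bases 11237 to 11542) lies within mt-Nd4, a subunit of complex I, on its own strand and had 6262, 6705 and 9513 RPKM in iWAT, 6857, 8230 and 9147 in eWAT, while BAT had 18097, 19571 and 20620. AK140219 (bases 70 to 957) lies within mt-Rnr1, the small ribosomal RNA of mitochondria, and had 623, 730 and 1640 RPKM in iWAT and 3034, 4201 and 5089 in BAT. The log2 fold changes of iWAT over BAT were -1.69 ± 0.13 for AK142750 (SE; adjusted p = 5.4e-08, edgeR) and -2.49 ± 0.24 for AK140219 (SE; adjusted p = 5.9e-07, edgeR). AK139402, which lies on the minus strand beyond the annotated genes at bases 15763 to 16188, had overlapping ranges instead. It had 236, 261 and 412 RPKM in iWAT, 236, 287 and 368 in eWAT, while BAT had 271, 300 and 367, with a log2 fold change of -0.28 ± 0.16 (SE; adjusted p = 0.13, edgeR). AK141672, on the minus strand across mt-Nd3, had 3.72, 6.28 and 20.9 RPKM in iWAT and 17.8, 26.6 and 28.7 in BAT, and the ranges overlapped. In the same search for copies, 92.4% of the words of AK141672 and 57.5% of those of AK139402 occur elsewhere in the genome. The share was 0.0% for both AK142750 and AK140219. The locus behind the reads of AK141672 and AK139402 is thus uncertain.

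In eWAT, 121 of the 156 rows that could be compared had a mean of at least 5 RPKM and 8 had a mean under 1. On the log2 scale, 139 of the 156 lay nearer to iWAT than to BAT. The same share over all shared rows was not computed, so this is a description and no trait of the AK rows. Between iWAT and eWAT, 11 rows were higher in iWAT and 7 in eWAT of 155 tested (edgeR, adjusted over 4997 shared rows), or 11.6%, and of all shared rows 5.94% were called higher in iWAT and 6.12% higher in eWAT (12.1% in all). Without eWAT replicates 14 and 15, the latter with the highest macrophage sum and the former with the highest epididymis sum, 8 rows were higher in iWAT and 3 in eWAT. Since iWAT levels were part of the rule, nothing is read from this count. The smallest adjusted p was that of AK079912, with a log2 fold change of iWAT over eWAT of 1.56 ± 0.20 (SE; adjusted p = 2.2e-05, edgeR). AK078237 in Adra1a followed with 1.13 ± 0.15 (SE; adjusted p = 3.1e-05, edgeR), and AK138356 with 1.56 ± 0.28 (SE; adjusted p = 0.001, edgeR). AK158083, which has the extent of the lincRNA Gm11131 and runs across H2-Q4 in GENCODE, had 6.18, 8.71 and 16.7 RPKM in iWAT and 3.12, 4.47 and 5.50 in eWAT. Its partner gene by overlap was Ddx39b, on the opposite strand. In the iWAT and BAT libraries the reads of AK158083 came to between 7.47% and 48.1% of those of Ddx39b. AK158083 and AK046375 were chosen through iWAT alone, so their excess over eWAT is a description with no test, with log2 fold changes that correspond to 2.23-fold and 1.98-fold. Both were highest in iWAT replicate 11.

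The 4 rows with the largest excess in eWAT all had their highest value in eWAT replicate 15. AK151849, across Lipa, the acid lipase of lysosomes, had 13.1, 14.5 and 15.2 RPKM in iWAT and 16.6, 26.2 and 244 in eWAT. AK155532, across Lgmn, the lysosomal protease legumain, had 6.55, 8.50 and 19.7 RPKM in iWAT and 16.0, 19.6 and 189 in eWAT. That library had 2559 RPKM of macrophage genes, beside 180 to 597 in the other eWAT libraries and 35.2 to 198 in iWAT, and the part of these genes in the result was not tested. The log2 fold changes of iWAT over eWAT were -2.16 for AK151849 (adjusted p = 0.01, edgeR) and -2.24 for AK155532 (adjusted p = 0.0096, edgeR). Without eWAT replicates 14 and 15 they were -0.90 (adjusted p = 0.0193, edgeR) and -1.07 (adjusted p = 0.0234, edgeR). With the number in the sample titles as a replicate block the adjusted p was 0.112 for AK151849 and 0.135 for AK155532 (edgeR). Over BAT, AK151849 was higher in eWAT by 1.40 on the log2 scale (adjusted p = 0.0228, edgeR), and by 0.14 without eWAT replicates 14 and 15 (adjusted p = 0.603, edgeR).

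AK083344 and AK157581 lie in an intron of Camk2b, a calcium-dependent kinase, on the other strand. AK083344 had 0.534, 0.928 and 2.31 RPKM in iWAT, 1.21, 2.88 and 10.1 in eWAT, while BAT had 7.21, 10.0 and 12.1. AK157581 had 1.34, 1.88 and 2.55 RPKM in iWAT, 2.27, 4.48 and 11.7 in eWAT, while BAT had 4.37, 5.82 and 8.14. The log2 fold changes of iWAT over eWAT were -1.96 (adjusted p = 0.0088, edgeR) and -1.60 (adjusted p = 0.005, edgeR). Both rows were highest in eWAT replicates 14 and 15, and without these libraries the changes were -0.88 (adjusted p = 0.146, edgeR) and -0.75 (adjusted p = 0.0586, edgeR). Camk2b was at a mean of 0.071 RPKM in iWAT and 1.37 in BAT, below both rows, and 80.3% and 76.5% of the 31-base words of AK083344 and AK157581 occur elsewhere in mm9. AK049451 in Nrp2 had 1.03, 1.72 and 5.73 RPKM in eWAT and a log2 fold change of iWAT over eWAT of -1.41 (adjusted p = 0.0231, edgeR), which was -1.12 with the replicate block (adjusted p = 0.197, edgeR) and -1.08 without eWAT replicates 14 and 15 (adjusted p = 0.0454, edgeR).

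Between eWAT and BAT, 67 rows were higher in eWAT and 53 in BAT of 155 tested (77.4%), while of all 4997 shared rows 35.1% were called higher in eWAT and 32.4% higher in BAT (67.4% in all). Of the 91 rows that had reached 5 RPKM in both iWAT and BAT, 60 (65.9%) were called. The steepest rows were those of the iWAT comparison. AK158286, AK131699, AK089315 and AK080008 had the largest excess in eWAT, and AK080254, AK027970, AK045690 and AK138356 had the largest in BAT. AK080008, between genes and 111 bp from Gm454, had 9.45, 11.3 and 13.2 RPKM in iWAT, 4.15, 11.4 and 14.5 in eWAT, while BAT had 0.234, 0.386 and 1.04. AK144310, in an intron of Ifrd1, had 3.33, 4.99 and 9.22 RPKM in iWAT and 0.108, 0.268 and 0.525 in BAT, beside means of 101 and 4.86 for Ifrd1.

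A single library also put AK042040 into the set. This row crosses Mylpf, a light chain of fast muscle myosin, and was singled out after its values were seen. It was at 71.9 RPKM in BAT replicate 12, the library with 1340 RPKM of muscle genes, at 5.23 or less in the other BAT libraries, and at 0.586 or less in every iWAT library. It was the row that did not pass the filter on low counts.

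Named long non-coding RNA genes were read for comparison. Of 14 such genes in the files, 4 reached 5 RPKM in iWAT or BAT, among them Malat1 (means of 110 and 132 RPKM) and Neat1 (79.3 and 296 RPKM). Of the 10 that could be tested, Snhg11 was higher in iWAT and 6 were higher in BAT, with Neat1 at a log2 fold change of -2.16 ± 0.26 (SE; adjusted p = 4.4e-06, edgeR). In BAT, AK080254, at a mean of 86.9 RPKM, lay below Neat1 and Malat1 and above the rest of these genes.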

How the data were processed

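Gene rows of 6 iWAT and 6 BAT samples and transcript rows of 6 eWAT samples were read. The deposited values are raw read counts and RPKM for each row, both made by the authors. Per the submitters' processing notes, cutadapt (version 1.16), HISAT2 (version 2.1.0) and mm9 were used, and the study names the Genomatix Genome Analyzer. The counting rule, strand setting and handling of reads with several matches are not given in the sources used here. The members and lists were chosen with earlier results of these data known.

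Rows were kept where 6 or more samples had 10 or more reads, and their counts were compared with edgeR (version 4.0.16, glmQLFit and glmQLFTest, TMM) in R (version 4.3.3), with iWAT and BAT in one fit over 19733 rows and all 18 samples in one fit over 4997 shared rows. A Benjamini-Hochberg adjusted p under 0.05 over all rows was the threshold. The labels do not say that samples of a depot came from separate mice, so p-values measure the spread between these samples, which may be technical. Tested on simulated data, the code called 63 of 100 and 95 of 100 rows changed by 1 and by 2 on the log2 scale, and 10 of 19533 unchanged rows, for iWAT over BAT. Partner genes were named rows, and pairs with a partner mean of at least 1 RPKM were used. AK rows were placed on GENCODE M1 (mm9), where 98.79% of 21849 shared symbols overlapped with the files. Sequences are from the NCBIM37 (mm9) genome.

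Rows named are the 10 highest in iWAT and in BAT, the 6 largest called changes each way between iWAT and BAT, the 4 largest called changes each way in both eWAT comparisons, the 6 largest called ratio differences, the 6 highest with no named gene within 10000 bp (4 were found) and the nearest to 5 RPKM. Further rows are marked as chosen after their values were seen, or share the gene of a named row. No libraries were identical (0 pairs). Alternatives were DESeq2 (version 1.42.0), RPKM on the log2 scale in limma (version 3.58.1) after adding 0.1 or 1, RLE factors, other filters and levels, a replicate block and leaving out libraries.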

Additional observations from a re-analysis of the deposited data

Results flagged for a closer look

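A single library stood apart from the other 5 of its depot in 13 of 105 sets of levels of the named AK rows, where chance gives about 1 in 20, or 5.25. In iWAT replicate 11, AK046375 was at 144.4 RPKM (others at most 78.1), AK158083 at 16.65 (others at most 9.67) and AK040096 at 2.825 (others at most 0.829). In iWAT replicate 14, AK140219 was at 1640 RPKM (others at most 883) and AK027970 at 0.1975 (others at most 0.049). In iWAT replicate 7, AK158286 was at 457.5 RPKM (others at most 360).

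In eWAT replicate 15, AK151849 was at 243.6 RPKM (others at most 47.8) and AK155532 at 189.1 (others at most 39.4), whereas AK080008 was at 4.15 (others at least 11.2). In eWAT replicate 7, AK045690 was at 0.2182 RPKM (others at most 0.119). Among the BAT libraries, AK089741 was at 128.8 RPKM in replicate 8 (others at most 94.5), AK045690 at 16.03 in replicate 11 (others at most 13.01) and AK080008 at 1.041 in replicate 7 (others at most 0.513).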

How the results depend on the processing

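A level of 1 or 10 RPKM in place of 5 gave 614 or 102 AK rows. Of those tested, 453 of 608 and 75 of 101 were called between iWAT and BAT. A level of 5 in both depots gave 65 calls of 103. Over all rows tested, 67.6% were called in the main fit. With a fold of at least 2 as well, 77 of the 172 rows and 6345 of all rows were called between iWAT and BAT, 10 rows between iWAT and eWAT and 72 between eWAT and BAT. Of all 4997 shared rows, 120 were then higher in iWAT and 223 higher in eWAT. Between eWAT and BAT, 1076 of these were higher in eWAT and 1153 higher in BAT. Between iWAT and eWAT, DESeq2 called 29 and the fit without eWAT replicates 14 and 15 called 11, against 18. Over all shared rows, DESeq2 called 387 higher in iWAT and 355 higher in eWAT of 4997. Without those libraries the counts were 192 and 172 of 4891. Counting overlaps on the same strand alone left 24 rows. The causes were not tested.

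Same-numbered samples of iWAT and BAT had correlations of their deviations between -0.037 and 0.125. Those of iWAT and eWAT lay between -0.351 and 0.219, and those of eWAT and BAT between -0.113 and 0.032. Such correlations cannot show whether same-numbered samples came from the same mouse, and the labels do not say so. The main fits did not take the numbers as pairs and may ignore a pairing. With the replicate block, 119 rows were called between iWAT and BAT (120 in the same 8 samples without it, a fit added after seeing the data), 13 between iWAT and eWAT and 110 between eWAT and BAT. Of all 19733 rows, the block fit called 5841 higher in iWAT and 5865 higher in BAT (6059 and 6069 without the block). Of 4997 shared rows, it called 213 higher in iWAT and 179 higher in eWAT. Between eWAT and BAT, it called 1469 higher in eWAT and 1437 higher in BAT. The block test of the ratios called 0, since its smallest p was 0.125.

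Of 1056 alternatives of 132 single values, 17 turned the direction. The log2 change of iWAT over BAT of AK155229 was 0.0549 and 0.0544 in limma (0.1 or 1 added). The change of eWAT over BAT of AK155229 was -0.0223 at a level of 1 RPKM, -0.0482 with the block and -0.0081 without eWAT replicates 14 and 15. The change of iWAT over eWAT was 0.0159 for AK089741 with the block, and 0.0627 for AK150979 and -0.025 for AK080008 without those libraries. Ratio differences turned with 1 added for AK046375 (-0.1943), AK027970 (0.2197), AK155532 (0.0196) and AK157581 (-0.1517), and with the block for AK150340 (0.0024), AK089315 (0.0508), AK155532 (0.0217) and AK143968 (-0.0095). That of AK080008 was 4.3593 against another partner gene. Strand cannot be read from these libraries, and rows of repeated sequence cannot be placed.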
